A study of Saccharomyces cerevisiae with 2 samples.

Results

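The meiosis and sporulation genes of the budding yeast Saccharomyces cerevisiae were examined for open chromatin in a strain with the temperature-sensitive Hsp90 allele G170D and in a wild-type (WT) strain. Hsp90 is an abundant chaperone. The genes were chosen by name alone, as the protein-coding genes of the R64 annotation whose symbol is SPO, SPS, SMA, MEI, MER, REC, HOP, IME or ZIP followed by a number. This gave 42 of 6002 nuclear protein-coding genes. Both strains are labelled as BY4741, a haploid laboratory background, and spent 6 h at 37 °C in the rich medium YPD. The G170D culture started at an OD of 0.37 and the WT culture at 0.25, and both ended between 0.65 and 0.7, so strain and growth over the 6 h cannot be told apart. The labels do not say which of the Hsp90 genes carries the allele or whether either strain is 1 clone.

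DNase I hypersensitive sites (DHS) are stretches of chromatin that the nuclease cuts readily, and footprints are short protected stretches within them, often taken as places where a protein is bound. There was 1 library per strain, so no replicate error and no test across replicates could be given. Each value describes these 2 lists, the read depth is unknown, and the intervals are exact Clopper-Pearson 95% intervals for counting error, which treat the items counted (genes, DHS or footprints) as independent. Neighbouring genes and footprints can share a DHS, so the intervals can be too narrow. The G170D list held 2875 DHS over 1807 kb and 33585 footprints, against 3155 DHS over 2183 kb and 45019 footprints in WT, so shorter coverage in G170D was common across the genome. BY4741 is known to lack LEU2, yet all 1095 bp of its coding region lay in a DHS in both lists. URA3, HIS3 and MET17 are also genes that this background is known to lack wholly or in part. The coding regions of URA3 and HIS3 held no DHS, and that of MET17 held 67 bp in G170D and 90 bp in WT.

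Meiosis is the pair of divisions that turns a diploid yeast cell into haploid nuclei, which are then packed into spores. It is started by the activator Ime1 and the kinase Ime2. Early genes carry a site for Ume6, which recruits repressors during growth, and middle genes are held off by Sum1 until Ndt80 replaces it. Haploid cells such as BY4741 do not enter meiosis, and most genes of the group are therefore known as silent in growing haploid cells. SPO7, SPO12 and SPO14 are exceptions, since their products also act in mitotic growth. RNA was not analysed here, so the silence of the genes in these cultures was not checked.

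Although these genes are mostly silent during growth, DHS were frequent before their coding starts. Within 500 bp upstream of the coding start, 23 of the 42 genes had at least 1 bp of DHS in G170D (54.8%, 38.7 to 70.2), against 25 in WT (59.5%, 43.3 to 74.4). Over all 6002 genes the shares were 29.6% in G170D and 31.6% in WT. The median gene of the group held 62.5 bp in G170D and 208 bp in WT, whereas the median over all genes was 0 bp in either strain. The mean was 184 bp in G170D and 218 bp in WT for the group, beside 89.6 bp in G170D and 98.5 bp in WT for all genes. A whole 500-bp window was covered for 8 genes in G170D and for 8 in WT. These were 19.0% of the members in each strain, beside 7.53% of all genes in G170D and 9.80% in WT. For 6 of them, REC114, SPO11, REC8, SMA2, SPS1 and SPS2, it was covered in both strains (14.3%, beside 6.10% of all genes).

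**Figure D1:**
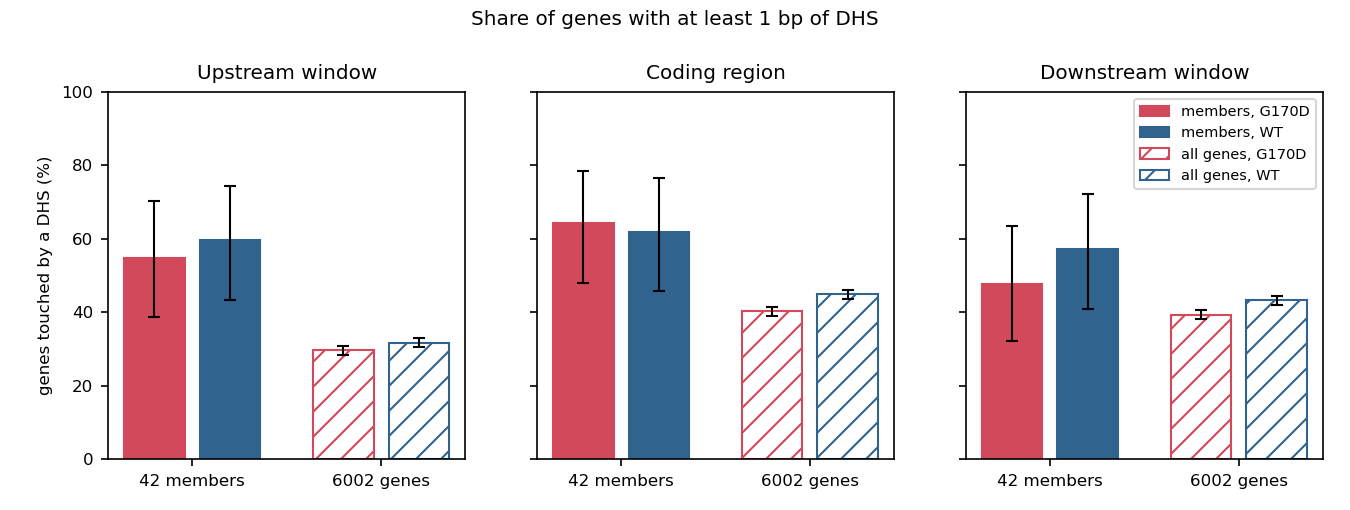
Percentage of genes with at least 1 bp of DHS in the 500 bp before the coding start, in the coding region and in the 500 bp after the coding end, for the 42 meiosis and sporulation genes (filled bars) and all 6002 genes (hatched bars), in G170D (red) and WT (blue). Error bars are exact 95% binomial intervals. The members' upstream bars stand at 54.8% in G170D and 59.5% in WT, beside 29.6% in G170D and 31.6% in WT over all genes.

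Between the strains, the upstream window held a DHS in G170D only for 1 gene, SPO24, and in WT only for 3 genes, HOP2, REC102 and SPS4. Of all genes 4.98% were in the first class and 7.05% in the second. The members' share was 2.38% (0.0603 to 12.6) for G170D only and 7.14% for WT only, the latter near the background. The share for G170D only rests on 1 gene, and its interval includes the share of all genes. Its direction also changed under some of the alternatives given below, so no difference from the background can be read from it. A difference was called when the DHS length in a window differed by at least 100 bp. Upstream, 9 members were shorter in G170D by that much (21.4%, 10.3 to 36.8), against 9.28% of all genes, and 1 was longer (2.38%), against 5.78% of all genes. Because more members than other genes had an upstream DHS at all, the calls were also counted among genes touched in either strain. There 9 of 26 members (34.6%) were shorter, beside 25.3% of 2198 genes, and 1 of 26 (3.85%) was longer, beside 15.8%. No interval was computed for these shares, which rest on few members. Summed over the members, upstream DHS length in G170D was 0.845 of that in WT (0.867 with overlapping windows counted once), and over all genes it was 0.909. The count of shorter windows depended on the window: it was 5 with 300 bp and 14 with 1000 bp. With 300 bp, HOP1, HOP2, SPO74 and SPS4 were no longer called. Over all genes the corresponding shares were 6.56% with 300 bp and 15.8% with 1000 bp.

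**Figure D2:**
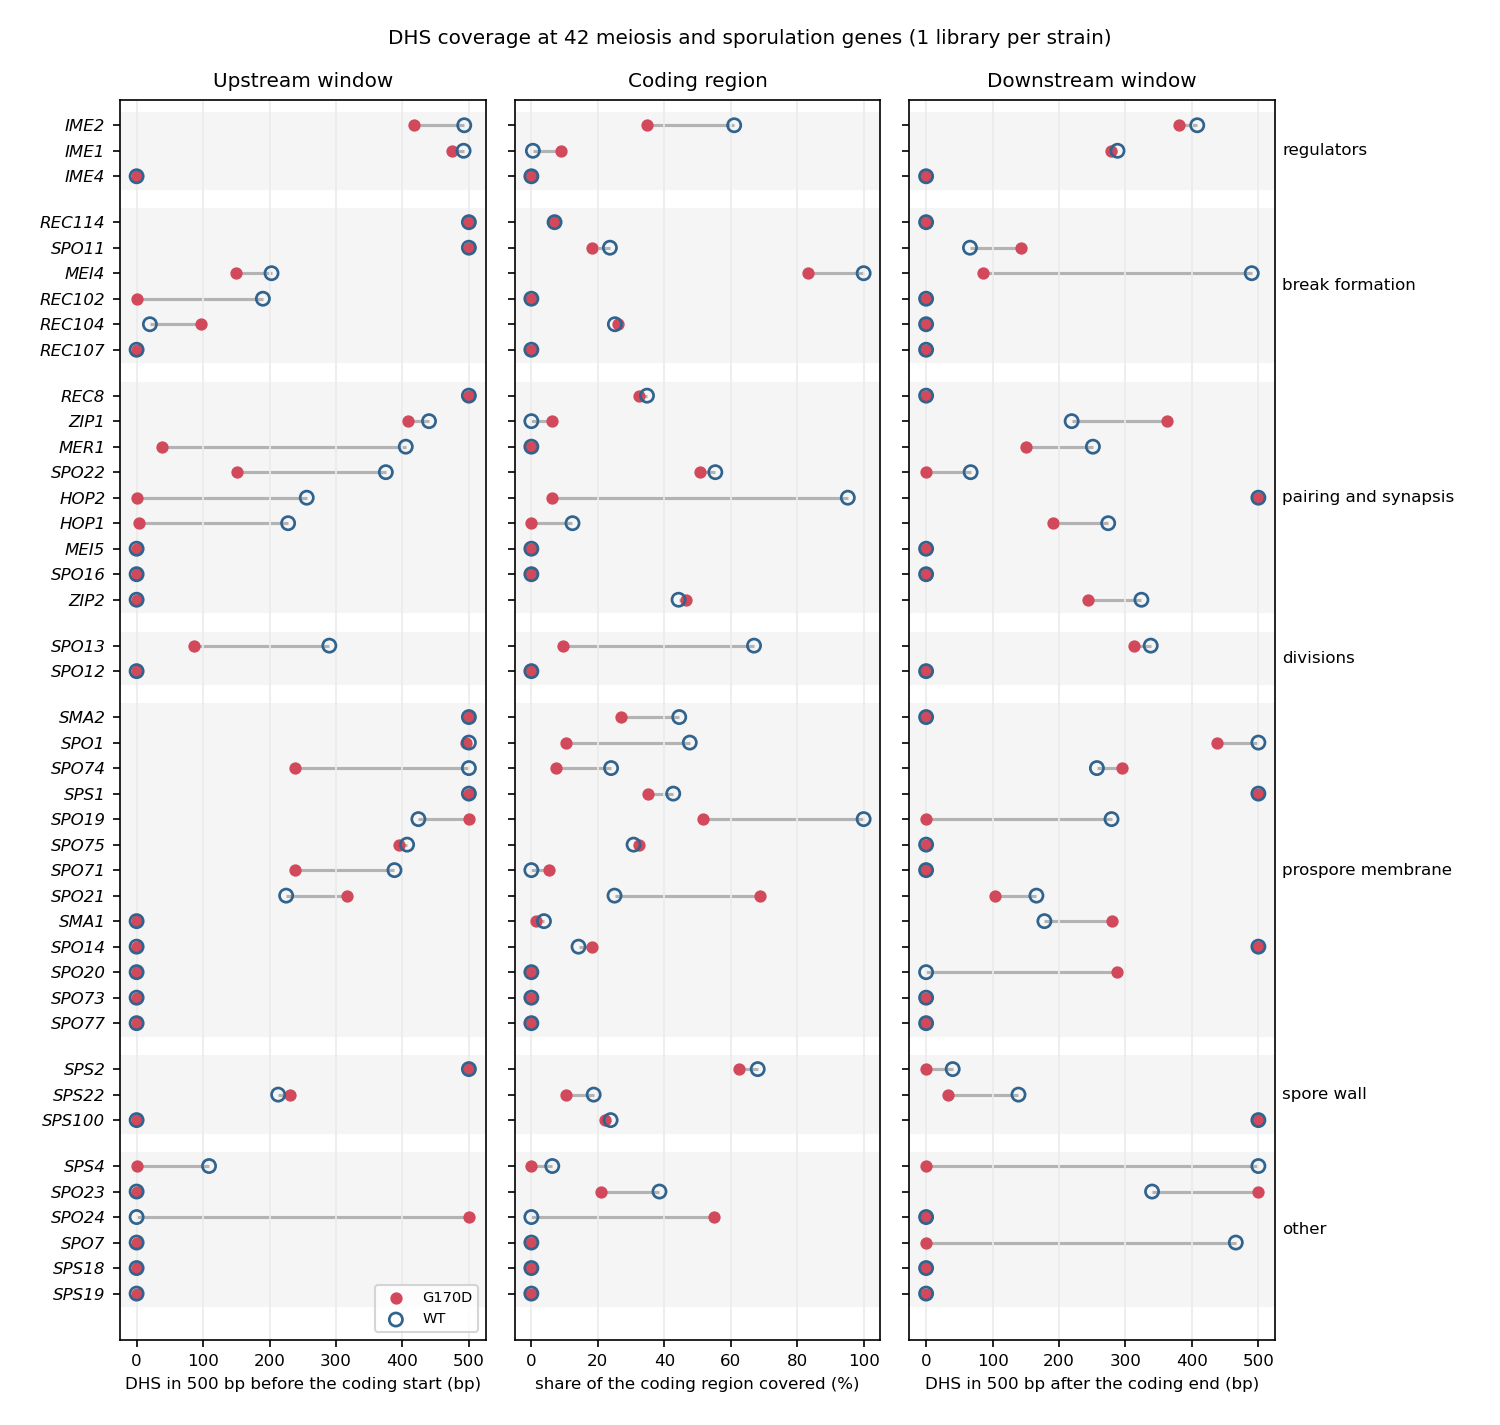
DHS coverage of each of the 42 genes, grouped by the role of the product, in G170D (filled red) and WT (open blue), 1 library per strain. Left, base pairs of DHS in the 500 bp before the coding start. Middle, percentage of the coding region covered. Right, base pairs of DHS in the 500 bp after the coding end. Grey lines join the strains. The group named pairing and synapsis holds 4 of the 9 upstream windows that were shorter in G170D by at least 100 bp, and SPO24 is the 1 window that was longer by that much.

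Of the regulators, IME1, which encodes the master activator of meiosis, lay next to open chromatin of similar extent in both strains. Its window held 475 bp and 8 footprints in G170D, against 492 bp and 8 footprints in WT. The DHS spanned X:605592-606126 (sacCer3) in G170D and X:605657-606148 in WT, at the end of a 2653-bp intergenic stretch nearest to the IME1 coding start. IME2, the gene of the kinase that acts after Ime1, held 418 bp upstream in G170D and 493 bp in WT. Footprints in that window numbered 3 in G170D and 10 in WT. The DHS at the IME2 start reached further into the gene in WT: it spanned X:220972-221466 (495 bp) in G170D and X:220897-221907 (1011 bp) in WT. With a second DHS at the end of the gene, the coding region was covered over 34.7% in G170D and 61.0% in WT. IME4, which encodes the methyltransferase that places m6A on meiotic mRNA, held no DHS in its window, its body or its downstream window in either strain. Only 18 bp separate IME4 from its upstream neighbour YGL193C, so its upstream window lay mostly over that gene.

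The genes for meiotic DNA break formation were open upstream in most cases. SPO11, which encodes the topoisomerase-like protein that cuts the DNA, held 500 bp in both strains, with 9 footprints in G170D and 12 in WT. REC114, which encodes an accessory factor of the break machinery, also held 500 bp in both, with 15 footprints in G170D and 14 in WT. The DHS at REC114 was almost the same in extent, at 1170 bp in G170D and 1180 bp in WT, and touched the windows of 3 genes. MEI4, whose product works with Rec114, held 149 bp upstream in G170D and 203 bp in WT, with 5 footprints in each. What differed at MEI4 was the other end of the gene. In G170D the gene had a DHS of 1242 bp (V:238682-239923) and, after its end, another of 85 bp. In WT 1 DHS of 2008 bp (V:237970-239977) overlapped both and ran over the whole gene and beyond its end. The downstream window held 85 bp and 0 footprints in G170D, against 490 bp and 9 footprints in WT.

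The remaining break genes had weak DHS or none. REC102, which encodes a subunit of the Spo11 core complex, held 0 bp upstream in G170D and 190 bp with 4 footprints in WT. The WT DHS there had a low score, at place 2746 of 3155 in its list, where place 1 is the strongest. REC104, the gene of another core subunit, held 97 bp in G170D and 20 bp in WT, from a DHS that lay mainly over the start of the gene. REC107, also known as MER2, held no DHS in any of the 3 regions in either strain.

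Genes for chromosome pairing and synapsis showed the largest summed upstream difference among the groups. The windows of SPO22 and HOP1 overlap. With the shared stretch counted once, the 9 upstream windows together held 1098 bp and 22 footprints in G170D, against 1976 bp and 40 footprints in WT. Of these genes, 4 were shorter by at least 100 bp in G170D, where 9.28% of all genes were, and none was longer. They were MER1, HOP2, SPO22 and HOP1, of which the last pair rest on the same stretch of DHS, so that 1 difference is counted at both genes here and among the 9 shorter windows of all members. MER1, whose product acts in splicing, was placed in this group and had its largest upstream difference (38 bp in G170D, 405 bp in WT). The group was formed from the roles of the genes with earlier results of these data known, so the difference is a description.

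MER1, which encodes an activator of the splicing of meiotic mRNAs, held 38 bp and 0 footprints upstream in G170D, against 405 bp and 4 footprints in WT. The DHS was present in both strains and differed at the edge that faces MER1: it spanned XIV:249625-250468 in G170D and XIV:249664-250835 in WT. SPO22, also known as ZIP4, encodes a protein that starts synapsis, and HOP1 encodes a protein of the chromosome axis. These genes are transcribed away from each other across 647 bp and share a DHS, so their values are not independent. That DHS spanned IX:224420-226105 in G170D and IX:224284-226329 in WT. It lay mostly over the first part of the SPO22 coding region, which held 1535 bp in G170D and 1671 bp in WT. On the HOP1 side it ended earlier in G170D. The SPO22 window held 151 bp and 2 footprints in G170D, against 375 bp and 9 footprints in WT. The HOP1 window held 4 bp and 0 footprints in G170D, against 228 bp and 5 footprints in WT.

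HOP2, which encodes a protein that acts with Mnd1 in the pairing of homologous chromosomes, differed both before and within the gene. A narrow WT DHS of 290 bp (VII:435091-435380) with 4 footprints lay before the coding start and overlapped no G170D DHS. The upstream window thus held 0 bp and 0 footprints in G170D, against 256 bp and 3 footprints in WT. The HOP2 coding region held 49 bp and 0 footprints in G170D, against 740 bp and 9 footprints in WT, or 6.31% and 95.2% of its length. The WT DHS over the coding region was a separate one of 1735 bp (VII:435662-437396). It ran on past the coding end, and the downstream window was covered over 500 bp in both strains.

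The other pairing genes differed little upstream. REC8, which encodes the meiotic cohesin subunit, held 500 bp in both strains, with 16 footprints in G170D and 20 in WT, the highest number of the group in each strain. Its DHS was about as wide in G170D (2033 bp, XVI:570716-572748) as in WT (2031 bp, XVI:570668-572698). By score it took place 186 of 2875 in G170D and place 214 of 3155 in WT. ZIP1, the gene of a protein that joins paired chromosomes in synapsis, held 409 bp upstream in G170D and 440 bp in WT, with 4 footprints in each. ZIP2, whose product helps to start synapsis, held none upstream. Its coding region held 984 bp in G170D and 937 bp in WT. SPO16, which encodes a partner of Zip2 and Spo22, and MEI5, which encodes a helper of strand exchange, held no DHS in any region in either strain.

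**Figure D3:**
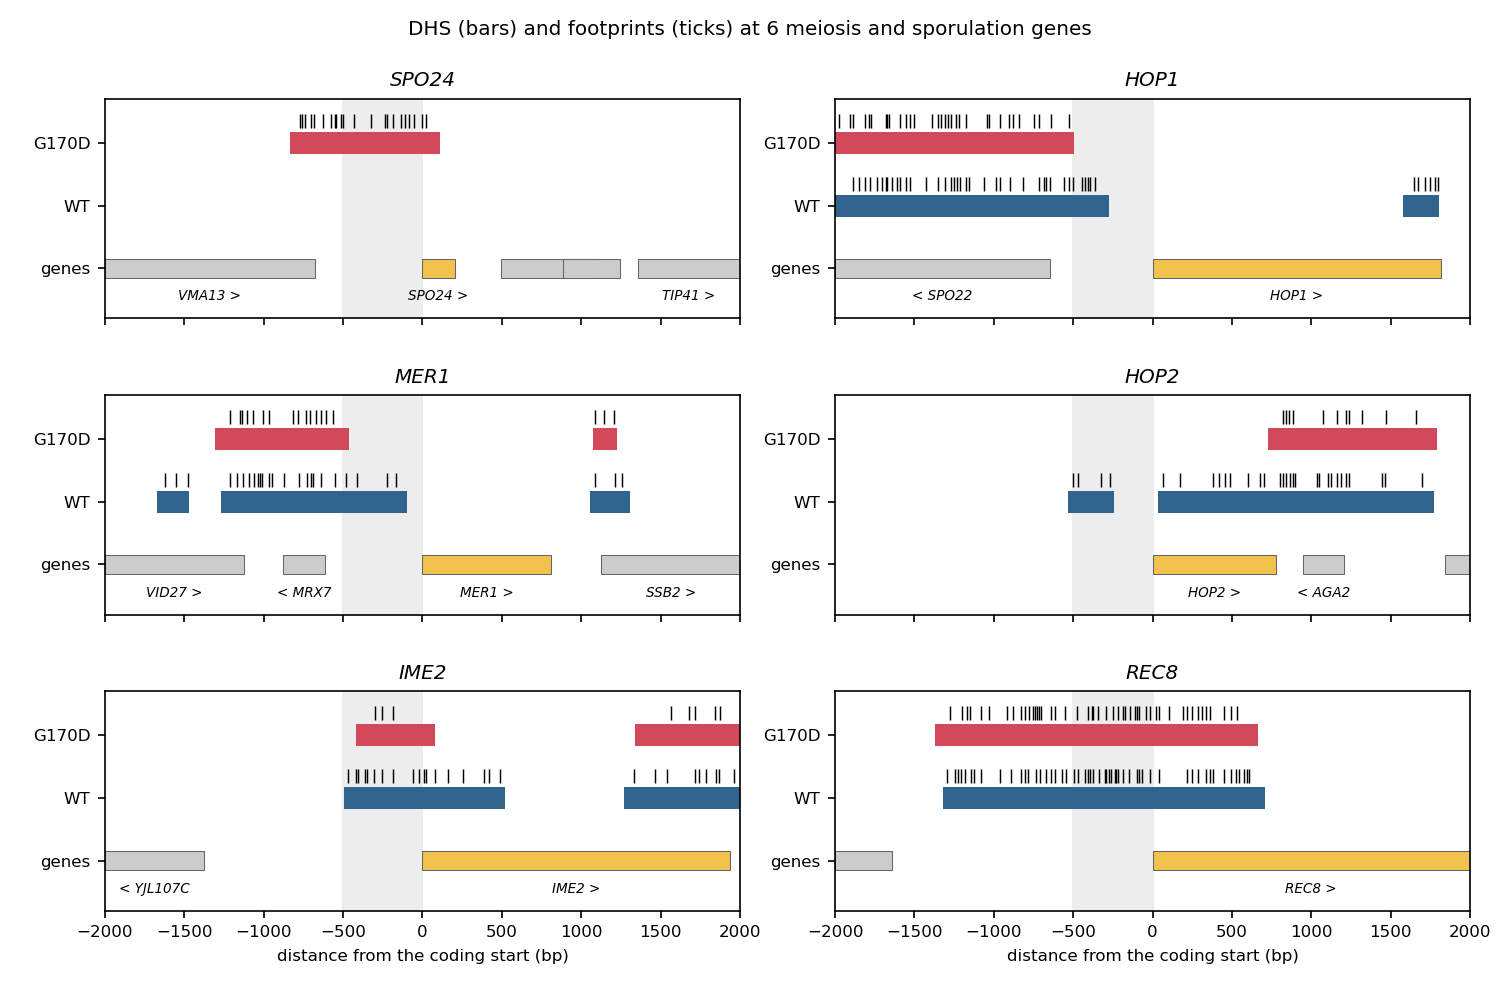
DHS (bars) and footprint midpoints (ticks) in G170D (red, upper track) and WT (blue, lower track) within 2000 bp of the coding start of SPO24, HOP1, MER1, HOP2, IME2 and REC8. The horizontal axis is the distance from the coding start in bp, with the gene read from left to right. Yellow boxes are the named genes, grey boxes are neighbouring coding regions, some without a name, arrows give the direction of transcription, and grey shading marks the 500-bp upstream window. The DHS at HOP1, MER1 and IME2 occur in both strains and end earlier on the side of the named gene in G170D, while the DHS before SPO24 is listed in G170D only.

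Of the 2 genes for the meiotic divisions, SPO13, whose product keeps sister chromatids together in the first division, was less covered in G170D both upstream and in the coding region. Upstream it held 87 bp and 3 footprints in G170D, against 290 bp and 4 footprints in WT. Its coding region held 83 bp and 1 footprint in G170D, against 587 bp and 8 footprints in WT. The downstream windows were close, at 313 bp in G170D and 338 bp in WT, with 9 footprints in each. They lay mostly in a very strong DHS, at place 55 in the G170D list and 60 in the WT list, that begins beyond SPO13. SPO12, which encodes a regulator of exit from mitosis and meiosis, held no DHS in any region. The same held for SPO16, its converging neighbour.

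Genes for the prospore membrane, the double membrane that grows around each nucleus, were mostly alike upstream. Of the 13 genes, 8 had an upstream DHS, the same 8 genes in G170D and in WT. The windows summed to 3184 bp and 63 footprints in G170D, against 3444 bp and 64 footprints in WT. SPS1, which encodes a sporulation-specific kinase, held 500 bp in both strains with 11 footprints in G170D and 12 in WT. SMA2, needed for membrane assembly, held 500 bp in both, with 10 footprints in G170D and 16 in WT. SPO1, which encodes a phospholipase-like protein, held 496 bp in G170D and 500 bp in WT, with 10 footprints in G170D and 9 in WT. SPO75, required for spore formation, held 395 bp in G170D and 407 bp in WT, with 10 footprints in G170D and 8 in WT.

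Within this group, 2 windows were shorter in G170D by at least 100 bp. SPO74, which encodes a component of the meiotic spindle pole plaque, held 238 bp and 3 footprints in G170D, against 500 bp and 9 footprints in WT. SPO71, whose product works with Vps13 in membrane growth, held 238 bp in G170D and 388 bp in WT, while its footprints numbered 5 in G170D and 2 in WT. The SPO71 difference turned round when the lowest 25% of each list by score was left out, since the WT DHS (place 2635 of 3155) was then dropped. SPO21, another gene of the spindle pole plaque, held 317 bp and 5 footprints upstream in G170D, against 225 bp and 0 footprints in WT. SPO19, which encodes a protein of the forming spore, held 500 bp in G170D and 424 bp in WT. SMA1, SPO14, SPO20, SPO73 and SPO77 held no upstream DHS in either strain.

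Spore wall genes differed little upstream. SPS2, needed for the glucan layer of the wall, held 500 bp in both strains, with 13 footprints in G170D and 15 in WT. Its window overlaps the end of SPS1, which lies 262 bp away, and 1 DHS covered both the SPS2 start and the SPS1 end (IV:1484414-1485903 in G170D and IV:1484348-1485995 in WT). SPS22, a gene related to SPS2, held 231 bp in G170D and 213 bp in WT. SPS100, which encodes a wall protein, held none upstream and 500 bp with 11 footprints downstream in both strains.

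SPO24, which encodes a small protein made during sporulation, stood apart from the rest. Its window held 500 bp and 11 footprints in G170D and 0 bp and 0 footprints in WT. The G170D DHS was 948 bp wide (XVI:645114-646061), held 22 footprints, and took place 152 of 2875 by score, within the strongest 5.29% of its list. No WT DHS overlapped it. Of the 24 DHS that touched an upstream window of a member in G170D, it was the 1 DHS without a counterpart in the other strain (4.17%), and of the 26 such DHS in WT, 3 had none (11.5%). Among all DHS these shares were 17.7% in G170D and 28.3% in WT. The upstream neighbour, VMA13, ends 677 bp away, so the window itself was intergenic. The lists carry no copy number, and whether the copy number of this stretch differs between the strains was not tested.

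Of the remaining genes, SPS4, a sporulation gene of unknown function, held 0 bp upstream in G170D and 109 bp in WT. That WT stretch lay beyond the 168 bp that separate SPS4 from its neighbour. SPO7, which encodes a subunit of a phosphatase that controls phospholipid synthesis, and SPO23, whose product is linked to Spo1, held no upstream DHS in either strain. SPS18 and SPS19, which encode a zinc finger protein and a peroxisomal enzyme, are transcribed away from each other across 300 bp. They held no DHS in any region.

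In all, 9 members had no DHS in any of the 3 regions of either strain: IME4, REC107, MEI5, SPO16, SPO12, SPO73, SPO77, SPS18 and SPS19. They made up 21.4% of the members, beside 33.6% of all genes. These 9 include SPO12, a gene active in mitotic growth, and IME4. SPO7 and SPO14, also active in growth, likewise lacked an upstream DHS in both strains. An empty window means that no region was listed there, and the depth that would be needed to list one is unknown.

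Coverage was highest before the coding start. In bins of 100 bp, the members' coverage in G170D was 38.0% at 300 to 400 bp before the start and 40.3% in the last 100 bp before it. In WT it was 47.2% and 39.9% in the same bins. Over all genes no bin from 500 bp before the start up to the start exceeded 18.3% in G170D or 19.9% in WT. Inside the gene the members' coverage dropped, and at 400 to 500 bp after the start it was 11.9% in G170D and 24.3% in WT. After the coding end the members reached 31.0% in G170D, at 200 to 300 bp, and 40.2% in WT, at 100 to 200 bp. The highest values over all genes were 26.8% in G170D and 30.7% in WT. The upstream lead of the members was thus larger than the downstream one.

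**Figure D4:**
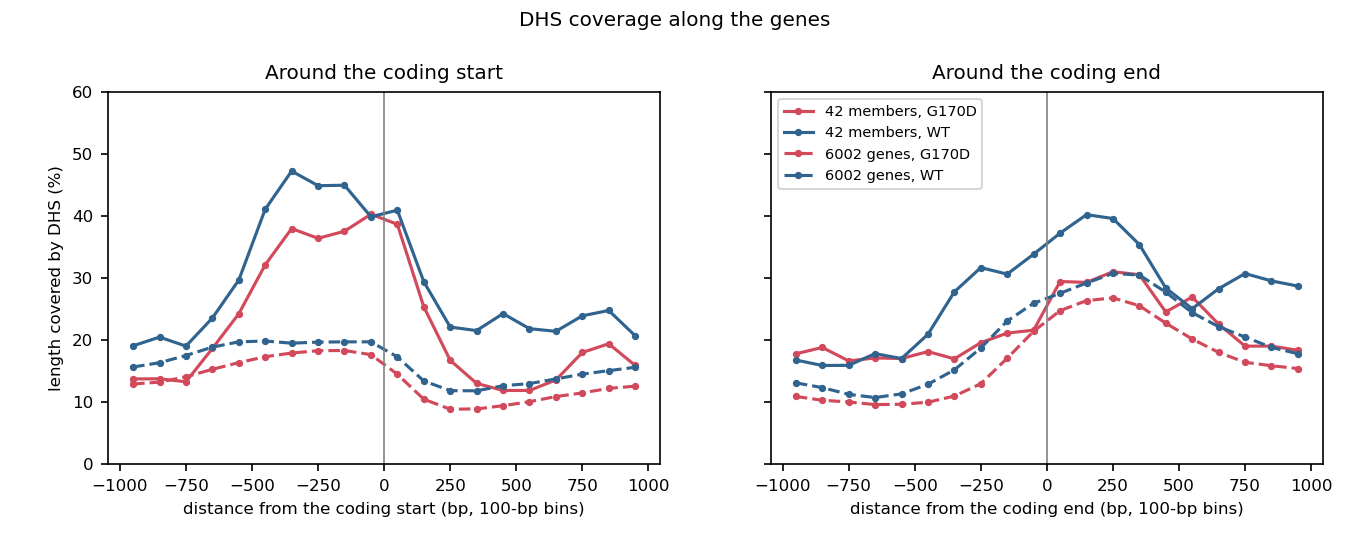
Percentage of length covered by DHS in 100-bp bins within 1000 bp of the coding start (left) and the coding end (right), for the 42 meiosis and sporulation genes (solid lines) and all 6002 genes (dashed lines), in G170D (red) and WT (blue). Negative distances lie before the start or the end. The members' lines stand above the lines of all genes in the 500 bp before the start, at 32.1% to 40.3% in G170D and 39.9% to 47.2% in WT.

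The upstream windows were also counted without the parts that lay in a neighbouring coding region. The intergenic parts of the members' windows were covered over 39.6% in G170D and 48.2% in WT. For all genes these values were 20.0% in G170D and 22.1% in WT. DHS beyond the start or end of the next gene made up 14.7% of the members' upstream DHS length in G170D and 12.2% in WT. The 27 members with a divergent upstream neighbour held a mean of 141 bp in G170D and 204 bp in WT, and the 15 with a tandem neighbour held 262 bp in G170D and 243 bp in WT. Without SPO24 the other 14 tandem genes held 245 bp in G170D and 260 bp in WT, so the direction among tandem genes rested on SPO24. All 9 shorter windows except REC102 and SPO71 belonged to divergent genes. The DHS that touched the members' upstream windows were wider than the lists as a whole, with a median of 651.5 bp in G170D (24 DHS) and 898.5 bp in WT (26 DHS). The medians of all DHS were 426 bp in G170D and 375 bp in WT. Wide DHS touch more windows, so the width is no independent property of the group.

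In the coding regions, 27 members had a DHS in G170D (64.3%) and 26 in WT (61.9%), against 40.2% and 44.9% of all genes. The members' coding length was ordinary, with a median of 1195.5 bp beside 1200 bp for all genes. Coverage was 20.5% of the coding length in G170D and 25.3% in WT, beside 9.94% in G170D and 12.8% in WT for all genes. A coding region was touched in G170D only for 3 members, SPO71, ZIP1 and SPO24, and in WT only for 2, HOP1 and SPS4. The shares of all genes were 5% for G170D only and 9.68% for WT only.

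In 13 members (31.0%, 17.6 to 47.1) the coding region held at least 100 bp less in G170D, against 18.2% of all genes. In 5 (11.9%, 3.98 to 25.6) it held at least 100 bp more, against 6.98% of all genes. Both shares were above those of all genes, and more members had a coding-region DHS that could differ. No coding-region DHS was listed in either strain for 31.0% of the members, against 50.1% of all genes. Summed DHS length in coding regions of G170D was 0.809 of that in WT for the members and 0.775 for all genes. The largest deficits in G170D were in SPO1, with 204 bp and 3 footprints in G170D against 944 bp and 16 footprints in WT, and in HOP2, IME2 and SPO13, described above. Part of the SPO1 difference came from a WT DHS of 3905 bp (XIV:611230-615134) that entered the gene from its end. In G170D this stretch held DHS that started beyond SPO1. The SPO13 difference was only -23 bp without the lowest 25% of each list by score. The SPO19 coding region held 348 bp and 6 footprints in G170D, against its whole 672 bp and 12 footprints in WT. SPO23 held 328 bp in G170D and 606 bp in WT, HOP1 held 0 bp in G170D and 225 bp in WT, and SPO74 held 91 bp in G170D and 298 bp in WT. The MEI4 coding region held 1093 bp in G170D and 1315 bp in WT. Smaller called differences were found in SMA2 (300 bp in G170D, 494 bp in WT), SPO22, SPS22 (146 bp in G170D, 261 bp in WT) and SPS1 (517 bp in G170D, 629 bp in WT). The largest excess was in SPO21, with 1259 bp and 19 footprints in G170D against 458 bp and 9 footprints in WT, or 68.8% and 25.0% of its length. SPO14, which encodes the phospholipase D of the prospore membrane, held 927 bp and 19 footprints in G170D against 717 bp and 13 in WT. ZIP1 held 167 bp in G170D and 0 bp in WT, and SPO71 held 197 bp in G170D and 0 bp in WT. SPO24 held 112 bp in G170D and 0 bp in WT. The G170D DHS within SPO71 was among the weakest of its list, at place 2873 of 2875. The WT DHS within HOP1 was also weak, at place 2747 of 3155. Without the lowest 25% of each list by score, the coding-region difference was 0 bp at SPO71 and at HOP1.

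In the 500 bp after the coding end, 20 members had a DHS in G170D (47.6%) and 24 in WT (57.1%), against 39.3% and 43.2% of all genes. SPO20, the gene of a SNARE protein for membrane fusion, was touched in G170D only, with 288 bp and 4 footprints. In WT only, 5 members were touched: SPO7, SPS2, SPO22, SPS4 and SPO19. These were 2.38% and 11.9% of the members, and 4.73% and 8.68% of all genes. At least 100 bp less was held by 6 members in G170D (14.3%, with 13.4% of all genes), a share near the background. At least 100 bp more was held by 4 members (9.52%, with 5.96% of all genes), namely SPO23, ZIP1, SPO20 and SMA1. With 300-bp windows 1 member was longer by that much (2.38%, with 4.47% of all genes).

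The largest downstream difference was at SPS4, whose window held 0 bp in G170D and 500 bp with 8 footprints in WT. The WT DHS there spanned XV:899876-901921, ran from the end of SPS4 over RPL20B, a ribosomal protein gene, and overlapped 2 G170D DHS outside the window. The SPO7 window held 0 bp in G170D and 466 bp with 5 footprints in WT, from a DHS of 1578 bp (I:136668-138245) that also covered the start of FUN14. SPO19 held 0 bp in G170D and 279 bp with 7 footprints in WT. In ZIP1 the window held 363 bp and 8 footprints in G170D against 219 bp and 4 in WT, and in SPO23 it held 500 bp and 8 footprints in G170D against 340 bp and 10 in WT. Smaller called differences were at MER1, with 150 bp in G170D and 251 bp in WT, and at SPS22, with 33 bp in G170D and 139 bp in WT. SMA1, also needed for membrane assembly, held 280 bp in G170D and 178 bp in WT. The MER1 and SMA1 differences were under 100 bp with windows of 300 bp. SPO23 was thus longer in G170D downstream and shorter in the coding region, and SPO71 was longer in the coding region and shorter upstream. No other member had called differences in opposite directions.

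Footprints were fewer in G170D in each region of the members when the lists were taken as deposited. Upstream there were 156 in G170D and 184 in WT, a ratio of 0.848 (0.681 to 1.06), beside 0.822 over all genes. The coding regions held 221 in G170D and 277 in WT (0.798, 0.666 to 0.956), beside 0.691 over all genes. After the coding end there were 120 in G170D and 161 in WT (0.745, 0.583 to 0.950), beside 0.757. With the same number of footprints and DHS in both lists the ratios were 1.13 upstream, 1.09 in coding regions and 1.01 downstream. Over all genes they were 1.09, 0.997 and 1.01 in the same order. The direction among the members thus rested on the length of the lists. With footprints in overlapping windows counted once, the upstream numbers were 156 in G170D and 179 in WT. Per kb of DHS, the members held 20.1 footprints in G170D and 20.1 in WT upstream, 18.0 in G170D and 18.3 in WT in coding regions, and 19.7 in G170D and 21.2 in WT downstream. Over all genes the upstream values were 19.3 in G170D and 21.4 in WT. Where upstream DHS of both strains overlapped, 70.2% of the members' 141 footprints in G170D overlapped a WT footprint (61.9 to 77.6). Of 155 in WT, 62.6% overlapped a G170D footprint (54.5 to 70.2). The shares over all genes were 72.4% for G170D and 62.6% for WT.

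**Figure D5:**
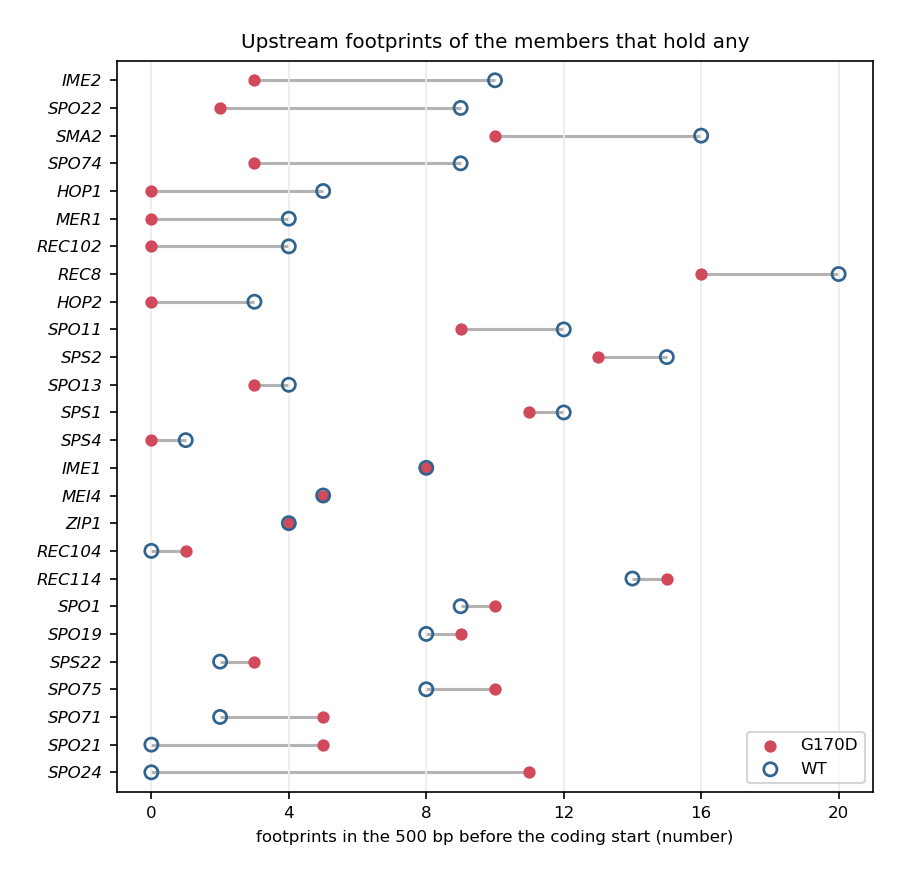
Number of footprints with their midpoint in the 500 bp before the coding start, for the 26 members that held any in either strain, in G170D (filled red) and WT (open blue), ordered by the difference. Grey lines join the strains. IME2 (3 in G170D against 10 in WT) and SPO22 (2 in G170D against 9 in WT) have the largest deficit in G170D, and SPO24 the largest excess, with 11 against 0 in WT.

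By gene, the upstream window of IME2 and of SPO22 held 7 footprints fewer in G170D, and those of SMA2 and SPO74 held 6 fewer. HOP1 held 5 fewer. SPO24 and SPO21 held 11 and 5 more. SMA2 differed in a window that was wholly covered in both strains, whereas at SPO22, SPO74 and HOP1 the DHS itself was shorter. The strongest upstream footprint of any member in G170D lay 184 bp before SPO24 (XVI:645754-645777), at place 769 of 33585 by score. Next came a footprint 248 bp before REC8 (XVI:571612-571640), at place 1199, which overlapped WT footprints. In WT the strongest lay 34 bp before SPS2 (IV:1485331-1485343), at place 2349 of 45019, and a G170D footprint had the same position. Which proteins left these footprints was not analysed here.

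A further 54 genes of meiosis and sporulation with other names, among them DMC1, MSH4, NDT80 and DIT1, were counted for comparison. The list was not limited to genes that are silent in growing cells, since UME6, whose product acts during growth, is also in it. Of these, 19 had an upstream DHS in G170D (35.2%, 22.7 to 49.4) and 19 in WT (35.2%), closer to the share of all genes than the 42 genes were. The median was 0 bp in both strains. At least 100 bp less was held in G170D by 6 of them (11.1%, with 9.28% of all genes): DMC1, HED1, SAE3, GAS2, GAS4 and LDS2. DMC1, which encodes the meiotic recombinase, held 171 bp and 1 footprint in G170D against 356 bp and 7 footprints in WT. GAS4, which encodes a glucan enzyme of the spore wall, held 274 bp and 2 footprints in G170D against 460 bp and 10 in WT. At least 100 bp more was held by 3 (5.56%, with 5.78% of all genes): MND2, MAM1 and GIP1. Both shares were near the background. MAM1, the gene of a subunit of monopolin, held 327 bp and 5 footprints in G170D and none in WT. ADY4, MSH4, GMC1, XRS2, PES4 and NDJ1 held 500 bp in both strains.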

How the data were processed

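Nuclei of 1 G170D and 1 WT culture were digested briefly with DNase I, and size-selected fragments were sequenced for 101 cycles, per the labels. The labels describe short fragments but give a selection above 650 bp. Per the submitters' processing notes, FastQC and Bowtie 0.12.8 were used, with the build sacCer3. The authors deposited 1 DHS list and 1 footprint list per library, each region with a score. The score formula, the DHS caller and its settings were not given in the sources used here. File names refer to dnase2tf for footprints. Scores were used only to rank regions within a list; the 3 (G170D) and 2 (WT) infinite footprint scores ranked as strongest.

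From these lists, base pairs of DHS and footprint midpoints were counted in the 500 bp before the coding start, the coding region and the 500 bp after the coding end of each gene in Python 3.11.15 with pandas 2.3.3 and numpy 2.4.6. Intervals came from scipy 1.17.1 and figures from matplotlib 3.10.9. Genes came from the RefSeq R64 table, the same assembly as sacCer3, and all 42 symbols and the 54 further names matched it. Strand was read from the systematic name. Untranslated regions are not included, introns are, and coordinates are counted from 1. The counting was tested on simulated lists. Sequences and motifs were not analysed here.

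The members, lists and roles were chosen with earlier results of these data known. All members are accounted for. By the rule for named genes, values are given for members with a difference of at least 100 bp in any region or of at least 5 upstream footprints and for the most covered members of each region. Alternatives were windows of 300 and 1000 bp, lists of the same number, lists without the lowest 25% by score, windows ended at the next coding region, at least 50 bp of DHS, and footprints counted by any overlap. Sums with overlapping windows counted once, and the mean of tandem genes without SPO24, were chosen after seeing the data.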

Additional observations from a re-analysis of the deposited data

How the results depend on the processing

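No paired analysis was possible because each strain had 1 library, and no replicate could be left out. The counts of members with an upstream DHS kept within 1.5 times under the 6 alternatives run on them, at 21 to 23 in G170D and 22 to 25 in WT. The 9 shorter upstream windows became 5 with windows of 300 bp and 14 with 1000 bp. Without the lowest 25% of each list by score, longer upstream windows numbered 3 in place of 1 (7.14%, with 5.28% of all genes). Upstream DHS in G170D only then numbered 2 (4.76%, with 4.08% of all genes). Both shares thus lay above those of all genes, where the shares in the full lists lay below. With at least 50 bp of DHS required, 2 members (4.76%, with 4.7% of all genes) had upstream DHS in G170D only and 5 (11.9%, with 6.85% of all genes) in WT only. Downstream, shorter windows numbered 10 with 1000 bp (23.8%, with 20% of all genes) and longer ones 1 with 300 bp (2.38%, with 4.47% of all genes). In lists of the same number, the footprint ratio of G170D to WT was 1.13 upstream, 1.09 in coding regions and 1.01 downstream, because that alternative removes the weaker WT footprints. Over all genes it was 1.09 upstream, 0.997 in coding regions and 1.01 downstream. Among single windows with a called difference, 36 of 38 stayed called with lists of the same number and 31 of 38 without the lowest 25%. Of the 20 upstream and downstream windows, 12 stayed called with 300 bp, 20 with 1000 bp and 16 when windows ended at the next coding region. With 300 bp the upstream difference was -28 bp at HOP1, -56 bp at HOP2 and -62 bp at SPO74. The reversals were SPO71 upstream (238 bp without the lowest 25%), SPS22 in the coding region (1 bp in equally long lists and 146 bp without the lowest 25%) and SPS22 downstream (33 bp in equally long lists), all through weak WT DHS that these alternatives drop. Read depth is unknown, so an empty window may be one that was not listed at this depth. Without SPO24 the mean upstream difference of tandem genes was -15.1 bp in place of 19.2 bp.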
